A study of Mus musculus with 8 samples.

Results

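Metallothioneins are small cysteine-rich proteins that bind zinc, copper and cadmium, and the transcription factor encoded by Mtf1 switches their genes on when free zinc rises. The members described here are the 5 genes Mt1, Mt2, Mt3, Mt4 and Mtf1. They were chosen as every probe set of the deposited table whose single gene symbol in the platform annotation is one of those names. That rule found 10 probe sets among 45101, and the annotation gave 18193 genes in all. Mt1 had 2 probe sets, Mtf1 had 5, and Mt2, Mt3 and Mt4 had 1 each.

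Mt1 and Mt2 are expressed in most tissues and are textbook genes induced by both metals and glucocorticoids. Mt3 is known from the brain and Mt4 from stratified squamous epithelium. MTF1 is a zinc-finger protein that senses zinc and binds short metal response elements in the promoters of its targets, so its own transcript need not change for those targets to respond.

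The arrays came from 7438 cells, a mouse mammary cell line that carries a green fluorescent protein fusion of the glucocorticoid receptor (GFP-GR) and a cherry fluorescent fusion of the estrogen receptor (Cherry-ER), both under a tetracycline-regulated promoter. All 4 groups carried both transgenes, had tetracycline (5 ug/ml) withdrawn 24 hours before treatment and were kept in charcoal-dextran serum (10%). All had been plated 48 hours before. The groups were Untreated, Dex (100 nM dexamethasone, a synthetic glucocorticoid, for 2 hours), E2 (100 nM estradiol for 2 hours) and Dex+E2 (100 nM of each for 2 hours), with 2 arrays in each. The labels number the arrays as replicates without naming separate cultures. The p-values therefore rest on the spread between arrays alone, and that spread may be technical.

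The values are log2 expression from robust multi-array averaging (RMA), whose medians lay between 5.58 and 5.67 on the 8 arrays. Replicate arrays correlated at 0.996 to 0.998 over 45037 probe sets, and a gap of over 1 log2 unit between replicates was seen for 30 probe sets in the Dex+E2 group and for 0 to 2 in each of the others. Dex+E2 replicate 2 stood furthest from the rest (mean correlation with the other arrays 0.9951, against 0.99633 to 0.99735), so values that it moves most are given without it as well. The titles and treatment labels of E2 replicate 2 and Dex+E2 replicate 1 give the groups used here, while their free-text descriptions name a chromatin experiment. Of 7 epithelial markers only Krt14 lay above the 75th percentile of mean level over the table. The 7 ran from percentile 4.11, for Cdh1, the epithelial cadherin gene, to 77.2, with Epcam at 66.2 and Krt5 at 62.7. Of 6 fibroblast or mesenchymal markers 5 lay above the 75th percentile. They ran from percentile 51.2, for Col1a1, to 99.8, for Vim and Col1a2. None of the 35 measured cell type markers passed the threshold used below in a comparison with untreated cells.

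The 4 metallothionein genes lie side by side on chromosome 8, in the order Mt4, Mt3, Mt2, Mt1, all on the plus strand, and Mtf1 lies on chromosome 4. Promoter sequence is shown because neighbouring Mt1 and Mt2 gave different values with Dex. The RefSeq promoter table (mouse build GRCm38.p6) held all 5 members, and the 250 bases before each listed start were searched on both strands. The core of the metal response element, spelled TGCACNC or TGCGCNC, occurred in 21.4% of all 32851 windows of that length. It occurred 3 times in the window of Mt2, once each in those of Mt1 and Mt4, and not in those of Mt3 and Mtf1. The Mt2 window, chr8:94172368-94172617 on the plus strand, is given whole with the 3 matches in capitals. The first 2 matches read forward and the third reads on the opposite strand.
Mt2: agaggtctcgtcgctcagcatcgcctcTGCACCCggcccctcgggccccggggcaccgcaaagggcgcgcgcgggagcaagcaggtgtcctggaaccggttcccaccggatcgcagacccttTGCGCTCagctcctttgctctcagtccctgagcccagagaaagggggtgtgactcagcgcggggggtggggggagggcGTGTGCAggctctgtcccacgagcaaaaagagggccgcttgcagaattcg
In the RefSeq gene table the Mt1 record begins 206 bases before the start that the promoter table lists, while those of the other 4 members begin at it. Thus 206 of the 250 bases of the Mt1 window lie within the record, as does the match. Which start these cells use was not measured. The match count of Mt1 is therefore not comparable with that of Mt2. Only the 30 bases around the Mt1 match are shown, chr8:94179055-94179084 on the plus strand. The same length is shown for the reverse-strand match before Mt4, chr8:94137102-94137131.
Mt1: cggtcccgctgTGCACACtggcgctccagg
Mt4: ctcactgggccGTGTGCAgggcgtctggcc
The full glucocorticoid response element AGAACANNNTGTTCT was in 0.00913% of windows and in none of the members' windows. A single arm of it, AGAACA, was in 16.1% of windows and, among the members, only before Mtf1. The full estrogen response element GGTCANNNTGACC was in 0.0639% of windows and in none of the members' windows. A single arm of that element, GGTCA, in 35.2% of windows, was likewise only before Mtf1. The Mt1 window lies mostly within its record, so the absence of these elements there does not describe the sequence upstream of the record. These matches describe the letters of short windows, and where the factors bind in these cells was not measured on these arrays.

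Mt1 rose with Dex on both of its probe sets, by 2.93-fold on 1422557_s_at and 1.96-fold on 1451612_at. With Dex and E2 together it rose by 2.07-fold on the first, and E2 alone gave no called change. None of the 8 probe sets of Mt2, Mt3, Mt4 and Mtf1 passed the threshold in any of 8 comparisons. The threshold was a Benjamini-Hochberg adjusted p under 0.05 from limma, fitted over 45037 probe sets. The arrays read RNA of whole cultures, so more cells with Mt1 RNA and more Mt1 RNA per cell cannot be told apart.

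**Figure D1:**
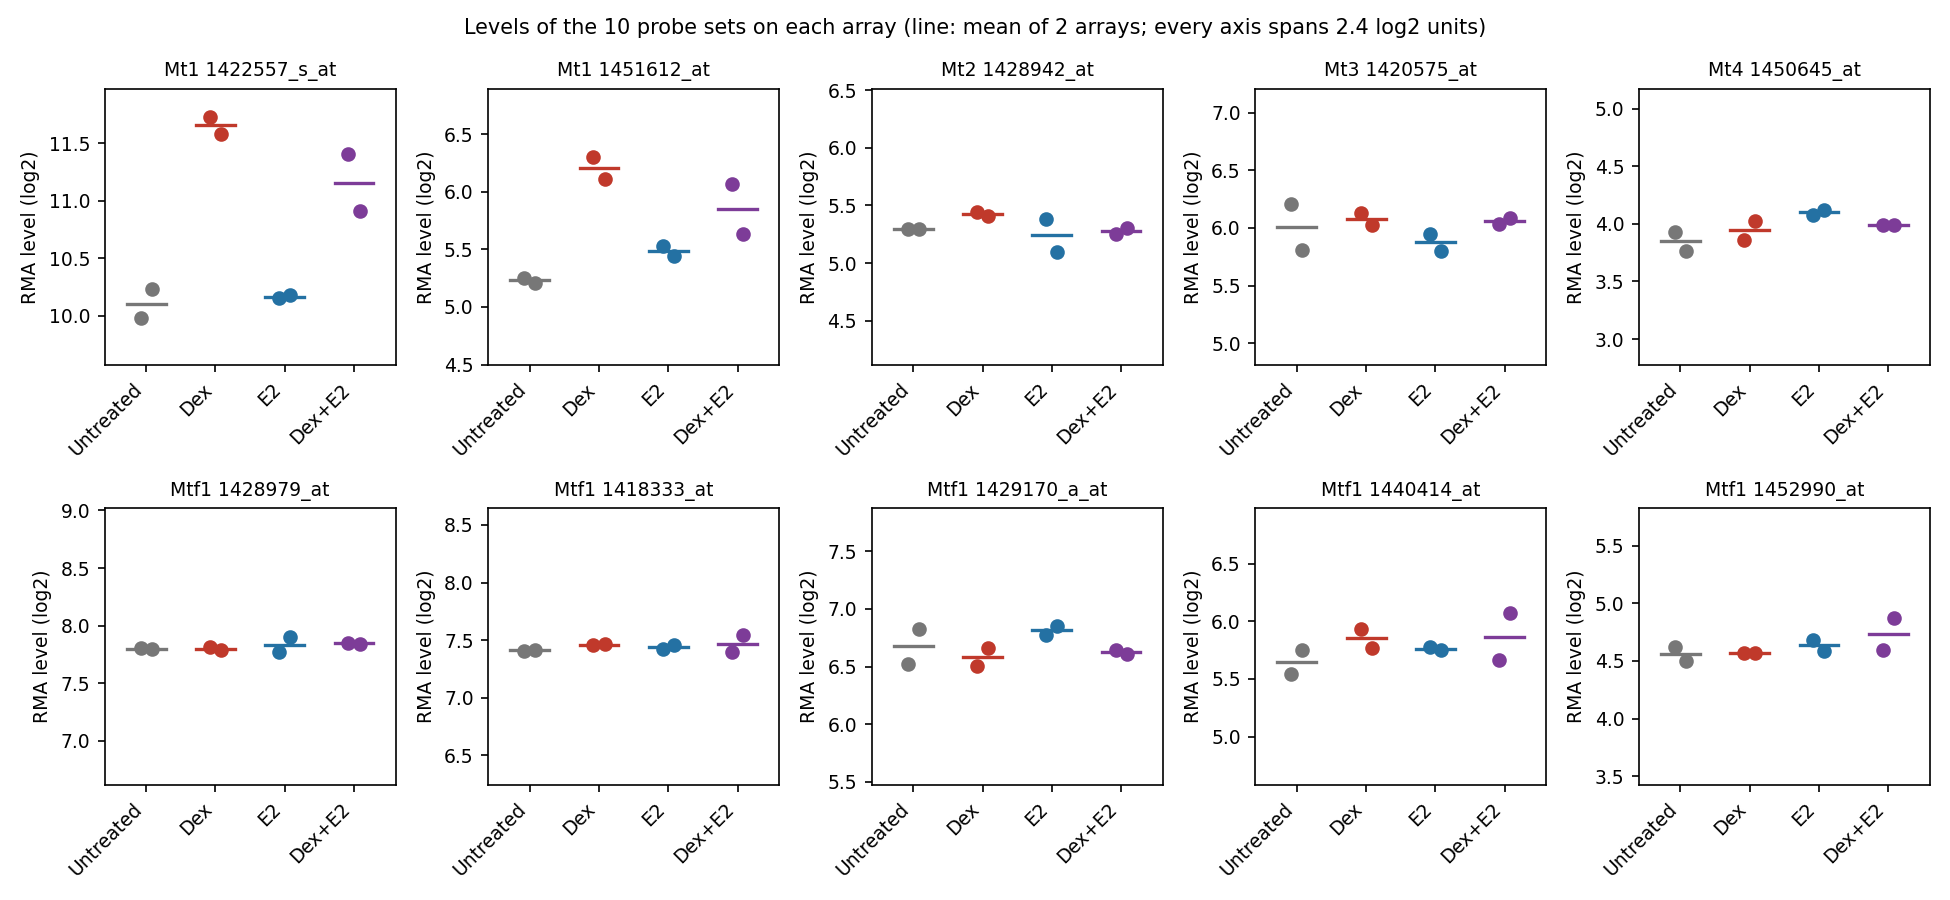
RMA level (log2) of each of the 10 member probe sets on the 8 arrays, with 2 points and a line at the mean for each group, on axes of equal span. Both Mt1 probe sets stand higher on the Dex and Dex+E2 arrays than on the Untreated and E2 arrays, while the other 8 probe sets span at most 0.53 log2 units over all arrays.

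On 1422557_s_at, the brighter Mt1 probe set (percentile 95.02 of mean level), the log2 levels were 9.98 and 10.23 in untreated cells, 11.73 and 11.58 with Dex, 10.16 and 10.18 with E2, and 11.41 and 10.91 with Dex+E2. Both Dex arrays were the highest, both Dex+E2 arrays came next, and the E2 arrays lay between the untreated ones. The suffix s_at is Affymetrix's mark for probes that match more than one transcript, and which transcripts those are was not examined. The difference between Dex and untreated was 1.55 ± 0.15 log2 units (SE; limma, Benjamini-Hochberg adjusted p = 0.000514), with a 95% interval from 1.22 to 1.88. It ranked 58 by size among the 45037 probe sets.

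On 1451612_at, the dimmer Mt1 probe set (percentile 51.1), the log2 levels were 5.25 and 5.21 in untreated cells, 6.30 and 6.11 with Dex, 5.53 and 5.45 with E2, and 6.06 and 5.63 with Dex+E2. The groups followed the same order, Dex above Dex+E2 above E2 above untreated, and here none of them overlapped. Mt1 was 0.97 ± 0.13 log2 units higher with Dex (SE; limma, Benjamini-Hochberg adjusted p = 0.00502). That call was lost without Untreated replicate 1 (0.99, adjusted p = 0.0683), without Untreated replicate 2 (0.95, adjusted p = 0.0856) and without Dex replicate 1 (0.88, adjusted p = 0.102), whereas 1422557_s_at kept its call without each array in turn. Over the 8 arrays the 2 Mt1 probe sets correlated at 0.959, a description of points that share 4 treatments.

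Thus 2 of 10 member probe sets, both of Mt1, were called higher with Dex and 0 lower, beside a background of 0.575% of all tested probe sets called higher and 0.349% lower. The median difference of the 10 with Dex was 0.081 log2 units, against 0.0014 over all probe sets tested. That median was similar with E2 (0.071, against -0.01) and with Dex+E2 (0.099, against 0.0035), so it is not particular to Dex. Each is below the median SE of a difference, 0.102. For scale, the glucocorticoid targets Tsc22d3, Per1 and Fkbp5 rose by 2.82 ± 0.23, 2.66 ± 0.13 and 1.62 ± 0.11 log2 units with Dex (SE, limma).

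**Figure D2:**
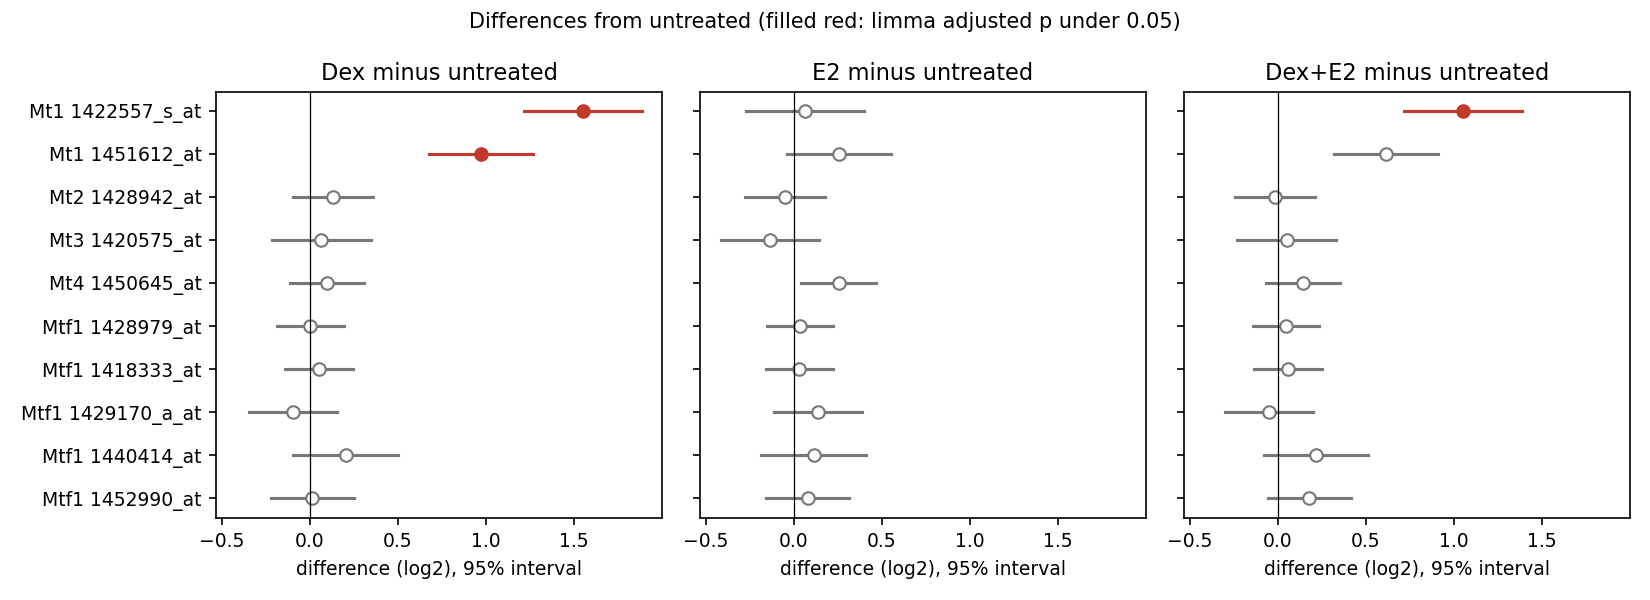
Difference from untreated cells (log2, horizontal axis, shared by the 3 panels) for each member probe set with Dex, E2 and Dex+E2, with the 95% interval from limma as a line and calls at an adjusted p under 0.05 as filled red points. With Dex both Mt1 probe sets are called, with Dex+E2 only 1422557_s_at, and with E2 none.

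Mt2, which makes the other widely expressed metallothionein, did not pass with Dex. Its probe set 1428942_at read 5.29 and 5.29 in untreated cells, 5.45 and 5.41 with Dex, 5.38 and 5.10 with E2, and 5.26 and 5.30 with Dex+E2 (log2 levels). Both Dex arrays were above every other array, and the mean difference from untreated was smaller than the gap between the 2 E2 arrays. The Dex difference was 0.13 ± 0.10 log2 units (SE; limma, Benjamini-Hochberg adjusted p = 1), with a 95% interval from -0.09 to 0.36. This upper bound lies below the lower bound of either Mt1 probe set, 1.22 and 0.68. That describes unadjusted intervals, and the difference between the genes was not tested. Mt2 differed by -0.05 with E2 and by -0.02 with Dex+E2, with 95% intervals from -0.28 to 0.17 and from -0.24 to 0.21. The Mt2 probe set was dim (percentile 44.4), and RMA compresses changes of dim probe sets. Its interval therefore need not bound the change in Mt2 RNA.

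Mt1 and Mt2 were also set side by side within arrays, as a description with no test, since the pair was picked after the values were seen. The log2 value of 1422557_s_at minus that of Mt2 ran from 5.60 to 6.28 on the 4 arrays with Dex and from 4.69 to 5.08 on the 4 without, a mean shift of 1.18, and these ranges did not overlap. For 1451612_at minus Mt2 the shift was 0.58, and the ranges of 0.33 to 0.85 and -0.08 to 0.35 overlapped. The brighter Mt1 probe set shifted by 0.60 more than the dimmer one. The part of signal level in these differences was not tested.

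**Figure D3:**
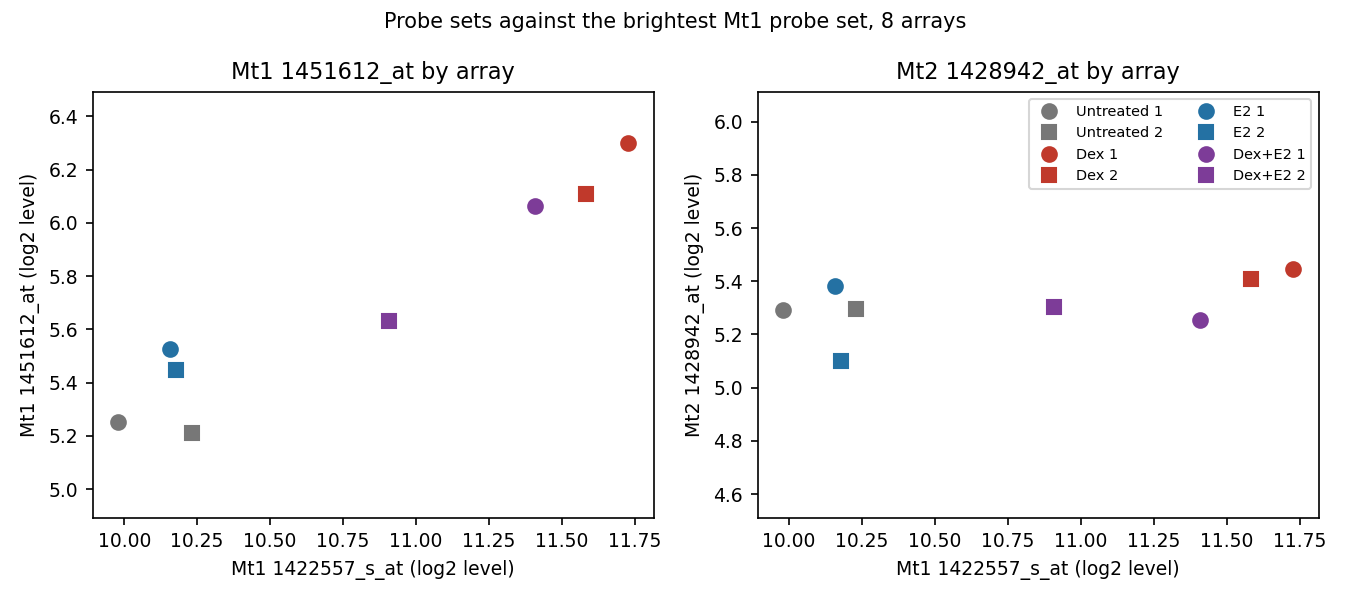
Log2 level of the dimmer Mt1 probe set (left) and of the Mt2 probe set (right) against the brighter Mt1 probe set on the horizontal axis, 1 point for each of 8 arrays, coloured by group and shaped by replicate. The dimmer Mt1 probe set climbs with the brighter one from 5.21 to 6.30, while Mt2 stays between 5.10 and 5.45.

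With E2 alone none of the 10 member probe sets was called. Of all probe sets tested, 0.0333% were called higher and 0.00222% lower, so no call among 10 is near that share and does not show an absence of change. The brighter Mt1 probe set differed from untreated by 0.06 ± 0.15 log2 units, with a 95% interval from -0.27 to 0.40 (limma, Benjamini-Hochberg adjusted p = 0.991). The dimmer one was 0.26 ± 0.13 higher on arrays that did not overlap, with an interval from -0.04 to 0.55, and did not pass (adjusted p = 0.934). The 1 member with an unadjusted limma p under 0.05 was Mt4, 0.25 ± 0.10 above untreated (unadjusted p = 0.0232, adjusted p = 0.880), on a probe set at percentile 17.1.

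With both hormones, Mt1 was higher than in untreated cells and lower than with Dex alone on each probe set, though not every one of these differences passed. The brighter probe set was 1.05 ± 0.15 log2 units above untreated (SE; limma, Benjamini-Hochberg adjusted p = 0.00748). The call was lost without Untreated replicate 1 (0.93, adjusted p = 0.130) and with only the Untreated and Dex+E2 arrays fitted (1.05, adjusted p = 0.0579), and the value was 1.30 without Dex+E2 replicate 2 and 0.80 without Dex+E2 replicate 1. The dimmer probe set was 0.62 ± 0.13 above untreated without passing (adjusted p = 0.0826), and passed without Dex+E2 replicate 2 (0.83, adjusted p = 0.00766), while without Dex+E2 replicate 1 it was 0.40. So 1 of 10 member probe sets was called higher and 0 lower, beside 0.471% of all probe sets called higher and 0.373% lower.

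Adding E2 to Dex went with lower Mt1 values that did not pass the threshold. Both Dex+E2 arrays lay below both Dex arrays on each Mt1 probe set. Mt1 differed by -0.50 ± 0.15 log2 units on 1422557_s_at and by -0.36 ± 0.13 on 1451612_at (SE; limma, Benjamini-Hochberg adjusted p = 0.996 for each). The unadjusted limma p-values were 0.00767 and 0.0230. It rested largely on Dex+E2 replicate 2, the array that stood apart: without it the values were -0.25 and -0.14, and without Dex+E2 replicate 1 they were -0.75 (adjusted p = 0.0460) and -0.57. No member passed in this comparison with all 8 arrays, where 0.00666% of all probe sets were called higher and 0 were called lower, against 2098 with an unadjusted limma p under 0.05 in either direction.

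Adding Dex to E2 raised the brighter Mt1 probe set by 0.99 ± 0.15 log2 units (SE; limma, Benjamini-Hochberg adjusted p = 0.0280), and that was the 1 of 10 member probe sets called, beside 0.204% of all probe sets called higher and 0.131% lower. The call was lost without any 1 of the Untreated, Dex or E2 arrays (adjusted p = 0.0647 to 0.167) and held without either Dex+E2 array, at 0.74 and 1.24. It was also lost with the mean of the Mt1 probe sets (0.67, adjusted p = 0.0686) and with only the E2 and Dex+E2 arrays fitted (0.99, adjusted p = 0.231). The dimmer probe set was 0.36 ± 0.13 higher and did not pass (adjusted p = 0.359), with values of 0.14 without Dex+E2 replicate 1 and 0.58 without Dex+E2 replicate 2.

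The interaction, which takes the Dex effect in E2-treated cells and subtracts that in cells without E2, was below 0 on both Mt1 probe sets, -0.56 ± 0.21 on 1422557_s_at and -0.61 ± 0.19 on 1451612_at. Neither passed (limma, Benjamini-Hochberg adjusted p = 0.881 for each; unadjusted p = 0.0245 and 0.00845), and of all 45037 probe sets 0 were called higher and 0.00222% lower. The Dex effects on Mt1 with and without E2 were therefore not shown to differ, with unadjusted 95% intervals for the difference from -1.03 to -0.09 and from -1.03 to -0.19. Without Dex+E2 replicate 2 the interaction was -0.31 and -0.39, and without Dex+E2 replicate 1 it was -0.81 and -0.83 (adjusted p = 0.106 and 0.0793).

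Averaged over both E2 states, Dex raised Mt1 by 1.27 ± 0.11 log2 units on the brighter probe set and by 0.67 ± 0.094 on the dimmer one (SE; limma, Benjamini-Hochberg adjusted p = 0.000133 and 0.00457). On each probe set all 4 arrays with Dex lay above all 4 without. These 2 of 10 member probe sets were called higher, beside 0.679% of all probe sets called higher and 0.693% lower. The mean E2 effect called none of the members (0.0488% of all probe sets were called higher and 0.00444% lower), and 1 member, Mt4, had an unadjusted limma p under 0.05 (0.15 ± 0.067, unadjusted p = 0.0498, adjusted p = 0.999).

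Mt3, whose product is a growth inhibitory metallothionein of the brain, had log2 levels of 6.21 and 5.81 in untreated cells, 6.13 and 6.02 with Dex, 5.95 and 5.80 with E2, and 6.03 and 6.09 with Dex+E2. The 2 untreated arrays were the highest and nearly the lowest of the 8, and of the other 6 arrays only E2 replicate 2 lay outside that spread. Its differences from untreated were 0.07 with Dex, -0.14 with E2 and 0.05 with Dex+E2, each with an SE of 0.13. Its probe set lay at percentile 56.1. The 5 neuron or astrocyte markers spread widely around that: Snap25 lay at percentile 1.21, Tubb3 at 15.0, Aqp4 at 23.5, Gfap at 52.3 and Rbfox3 at 64.0.

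Mt4 was the dimmest member. Its log2 levels were 3.93 and 3.77 in untreated cells, 3.86 and 4.03 with Dex, 4.08 and 4.12 with E2, and 3.99 and 3.99 with Dex+E2. The E2 arrays were the highest and the untreated and Dex arrays overlapped. Of 5 markers of keratinised squamous epithelium, Flg, the filaggrin gene, lay at percentile 6.06, Krt1 at 31.3, Ivl at 60.3, Lor at 68.9 and Krt10 at 69.6.

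Mtf1, which encodes the zinc-sensing activator of Mt1 and Mt2, kept nearly level values. On its brightest probe set, 1428979_at (percentile 75.1), the log2 levels were 7.80 and 7.79 in untreated cells, 7.81 and 7.79 with Dex, 7.77 and 7.90 with E2, and 7.85 and 7.84 with Dex+E2. The 8 arrays spanned 0.13 log2 units, and the 2 E2 arrays were the lowest and the highest. The Dex difference was 0.0028 ± 0.085 (SE; limma, Benjamini-Hochberg adjusted p = 1), with a 95% interval from -0.19 to 0.19. On the next brightest, 1418333_at, the arrays spanned 0.15 log2 units and the Dex difference was 0.05 ± 0.087. The other 3 Mtf1 probe sets, 1429170_a_at, 1440414_at and 1452990_at, differed with Dex by -0.10, 0.20 and 0.01, and with Dex+E2 by -0.05, 0.22 and 0.18. Without Dex+E2 replicate 2 those of 1440414_at and 1452990_at with Dex+E2 were 0.01 and 0.04. With all arrays the intervals all included 0, and that of 1440414_at reached 0.50 with Dex and 0.51 with Dex+E2. Among the 5 Mtf1 probe sets the lowest adjusted p in any comparison was 0.525.

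Genes around the cluster were read in the order of the RefSeq gene table, a choice made after the metallothionein values were seen. Of the 8 nearest protein-coding neighbours, 4 on each side, 7 had a probe set with 1 symbol, and 1 of these was called with Dex. Over all tested probe sets 0.575% were called higher and 0.349% lower. Whether the neighbours respond together was not tested. Herpud1, which encodes a protein of endoplasmic reticulum quality control, was 0.80 ± 0.11 log2 units higher (SE; limma, Benjamini-Hochberg adjusted p = 0.00688), a call lost without Untreated replicate 1 (0.64, adjusted p = 0.0842), Dex replicate 1 (0.76, adjusted p = 0.120) or Dex replicate 2 (0.84, adjusted p = 0.0660). With Dex+E2 it was 1.00 ± 0.11 higher (adjusted p = 0.00172). Nup93, a nuclear pore gene and the nearest on the side of Mt1, differed by 0.12 ± 0.086 and Bbs2, the nearest on the side of Mt4, by 0.18 ± 0.14, without passing.

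**Figure D4:**
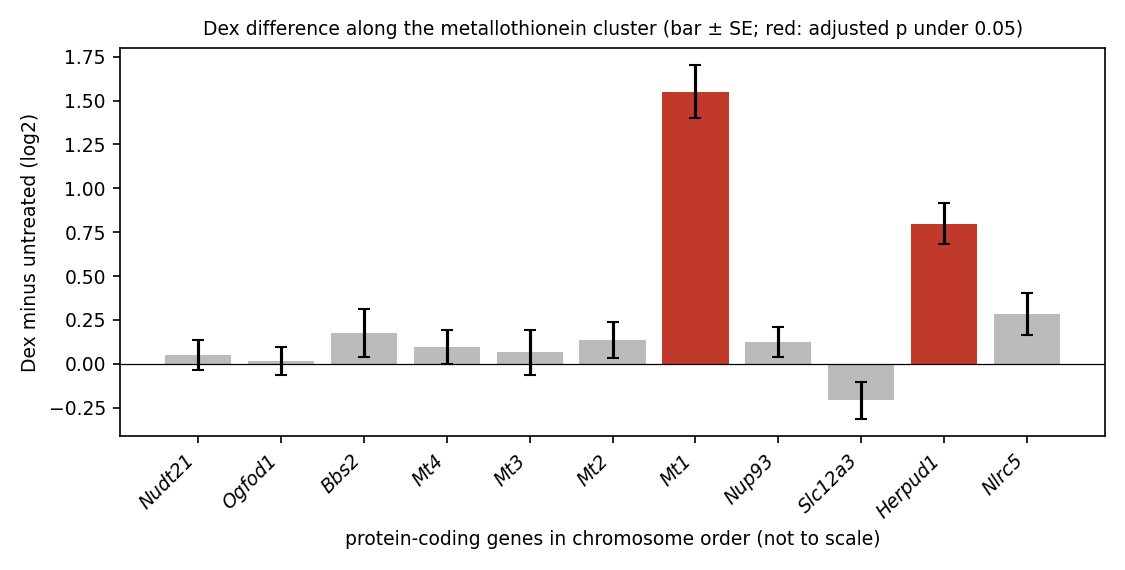
Difference between Dex and untreated (log2, bar, with the SE from limma) for the brightest probe set of each metallothionein gene and 7 neighbouring protein-coding genes, in chromosome order and not to scale. Mt1 at 1.55 and Herpud1 at 0.80 are called, and Mt2, next to Mt1, is at 0.13.

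Few other genes of metal handling passed, as few did among all probe sets. With Dex 0.575% of all tested probe sets were called higher and 0.349% lower, and with Dex+E2 0.471% and 0.373%. A fit of only the brightest probe set of each gene called 267 of 18193 with Dex. Lists of this size would thus hold few calls in any case, and uncalled genes are no result about metal handling. Over 6 lists with 64 measured genes together, 2 were called higher with Dex and 0 lower, the same counts as with Dex+E2, and E2 called 0 (limma; 3 of the 64 had an unadjusted p under 0.05 with E2). Of 14 zinc importers of the ZIP family 1 rose with Dex, Slc39a14, a transporter of zinc and iron, by 1.00 ± 0.13 log2 units (limma, Benjamini-Hochberg adjusted p = 0.00312), and the list median was -0.033. With Dex+E2 it rose by 0.80 ± 0.13 (adjusted p = 0.0144). The Dex call was lost without Untreated replicate 1 (0.99, adjusted p = 0.0542), Untreated replicate 2 (1.01, adjusted p = 0.0513) or Dex replicate 1 (0.88, adjusted p = 0.0637). The Dex+E2 call was lost without either untreated array (0.79 and 0.81, adjusted p = 0.162 and 0.161), and with the mean of its probe sets it was 0.39 (adjusted p = 0.104). With that mean the Dex difference was 0.67 and still passed.

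Of 10 genes listed here as MTF1 targets besides the metallothioneins, 1 rose with Dex and 0 fell, with a median of -0.10. It was Pgf, the placental growth factor gene, 0.53 ± 0.094 log2 units higher with Dex (limma, Benjamini-Hochberg adjusted p = 0.0261) and 0.55 ± 0.094 with Dex+E2 (adjusted p = 0.0219). The Dex call was lost without any 1 of the Untreated or Dex arrays (0.48 to 0.58, adjusted p = 0.137 to 0.360), and the Dex+E2 call without any 1 of those arrays or Dex+E2 replicate 2 (adjusted p = 0.0542 to 0.208). Slc30a1, which encodes the zinc exporter ZnT1 and is a target that MTF1 is known to induce, differed by -0.21 ± 0.094 with Dex without passing (unadjusted p = 0.0494, adjusted p = 0.876). None of the 10 zinc exporters, 14 copper handling genes, 9 iron handling genes and 13 oxidative stress genes passed with Dex in limma (1, 0, 1 and 3 with an unadjusted p under 0.05). With 0.575% of all tested probe sets called higher with Dex and 0.349% lower, no call in lists this short is unremarkable. The smallest p in each belonged to Slc30a1, Slc31a1 (-0.14), Cp (0.36) and Osgin1 (-0.64, adjusted p = 0.0907).

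The genes whose values over the 8 arrays lay closest to the brighter Mt1 probe set, after each was centred on its untreated mean, were Dok1, an adaptor of tyrosine kinase signalling, Dyrk3, a protein kinase, Rhob, a small GTPase, Nfil3, a transcriptional repressor, and Ampd3, an AMP deaminase. Their root mean square differences from Mt1 were 0.117, 0.135, 0.150, 0.151 and 0.151 log2 units among 16439 genes, beside 0.948 for Mt1's own change, and their Pearson r over the 8 arrays ran from 0.976 to 0.991. All 5 were called with Dex in limma, at 1.47, 1.62, 1.47, 1.27 and 1.61. With Dex+E2 they stood at 1.24, 1.28, 1.11, 1.06 and 1.18, each below its own Dex value as Mt1 was. The genes were picked for closeness to Mt1 on these same arrays. Their Dex calls and lower Dex+E2 values therefore follow largely from that choice and are no separate evidence about Mt1. These values share the same arrays and treatments, and genes are not independent replicates. The Mt2 values moved by only 0.102 on this measure, so its nearest genes, Lyzl1, Slc34a3, Rbm11, Spef1l and Map1s at 0.0342 to 0.0448, are ones that also barely moved, and none was called with Dex.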

How the data were processed

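Log2 values of 45101 probe sets on 8 arrays were taken from the deposited table. Per the submitters' processing notes, the authors made them with RMA in Affymetrix Expression Console; versions are not given in the sources used here. RMA equalises the arrays and compresses changes of dim probe sets. Levels are therefore compared between probe sets only as percentiles, to name a gene's brightest probe set, and in the within-array differences of Mt1 and Mt2. Groups came from titles. The 64 control probe sets were left out. The other 45037 were fitted with limma 3.58.1 in R 4.3.3 as 4 group means (4 residual and 6.3 prior degrees of freedom; median SE of a difference between groups 0.102). P-values were adjusted within each comparison by Benjamini-Hochberg, with calls under 0.05. The number of arrays limits the precision. Errors are SE for differences. The script was tested on simulated data. The platform annotation named 34958 probe sets by 1 symbol, 932 by several and 9211 by none, and 34754 matched RefSeq. Ftl1 and Prdx1 had no single-symbol probe set. A list gene is read from its brightest probe set. The named genes are every member, list genes past the threshold or with the smallest p, and the 5 nearest patterns to Mt1 and Mt2. Members and lists were chosen with earlier results of these data known. Alternatives were another prior, other probe set choices, a level filter, 2 normalizations, fewer groups, a replicate block and leaving out each array.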

Additional observations from a re-analysis of the deposited data

How the results depend on the processing

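Each member was refitted under up to 17 other settings, 8 of which leave out 1 array. The Dex call of Mt1 on 1422557_s_at held under all 17 (1.26 to 1.68), and its mean Dex effect under all 16 that applied. The count of member probe sets called with Dex and for the mean Dex effect was 1 in place of 2 with the brightest probe set or the mean of each gene's probe sets, since Mt1 then counts once. With the mean of probe sets, Mt1 for Dex+E2 against E2 was 0.67 (adjusted p = 0.0686) and the count 0. With only the compared arrays, Mt1 for Dex+E2 against untreated was 1.05 (adjusted p = 0.0579) and against E2 0.99 (adjusted p = 0.231), each with a count of 0. The cause was not tested. Leaving out each array gave counts of 1 to 2 for Dex, 0 to 2 for Dex+E2, 0 to 1 for Dex+E2 against Dex and 0 to 1 against E2. On 1422557_s_at the values ran from 0.80 to 1.30 for Dex+E2, from -0.75 to -0.25 for Dex+E2 against Dex and from 0.74 to 1.24 against E2. On 1451612_at they ran from 0.88 to 1.07 for Dex and from 0.40 to 0.83 for Dex+E2. A group left with 1 array is assumed to vary like the others. No other member passed anywhere (lowest adjusted p = 0.0946), and 54 of 1130 values of uncalled results turned sign. The settings for Pgf, Slc39a14 and Herpud1 were added after seeing the data; with only the compared arrays Pgf (adjusted p = 0.0757) and Slc39a14 (adjusted p = 0.0650) lost the Dex+E2 call.

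The replicate numbers were not taken to pair the arrays, since the replicate differences did not correlate above 0.1 for every pair of groups. The 3 correlations among Untreated, Dex and E2 were 0.160 to 0.312, and the 3 with Dex+E2 were -0.248 to -0.105. With the replicate block, Mt1 for Dex+E2 against E2 was 0.99 (adjusted p = 0.0646, count 0), Pgf lost its Dex call (adjusted p = 0.0534), and calls over all probe sets were 372 in place of 416 for Dex and 107 in place of 151 for Dex+E2 against E2.

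Those totals moved by over 1.5 times with some settings. Leaving out 1 array gave 170 to 498 for Dex, 3 to 37 in place of 16 for E2, 169 to 1436 in place of 380 for Dex+E2, 0 to 168 in place of 3 against Dex, 30 to 1974 against E2, 0 to 29 in place of 1 for the interaction, 349 to 1666 in place of 618 and 3 to 71 in place of 24 for the mean Dex and E2 effects. The other settings gave 267 to 532, 14 to 46, 222 to 455, 0 to 5, 16 to 218, 1 to 6, 365 to 704 and 22 to 76 in the same order.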
